A study of Homo sapiens with 30 samples.

Results

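Sphingosine-1-phosphate receptors, the enzymes that make and degrade their ligand, and RGS4 were followed through 30 RNA sequencing libraries of LNCaP, a human prostate cancer cell line that depends on androgen signalling and carries luminal markers. The set holds 8 of the 26443 genes with values in the tables: the receptors S1PR1, S1PR2, S1PR3 and S1PR5, the sphingosine kinases SPHK1 and SPHK2, the lyase SGPL1, and RGS4. Members were chosen by gene symbol, with earlier results of these same libraries known, and which values led to the choice is not recorded. Every contrast is therefore treated as used: the fold changes of the members describe these libraries and are not independent evidence of a response. All 8 symbols were found in both tables.

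The study concerns the stability of FOXA1, a forkhead transcription factor of luminal prostate cells, under Polycomb proteins and a complex of BUB3 with the deubiquitinase USP7; the libraries measure RNA only. Of the 10 groups of 3 libraries, the pLKO experiment holds cells with shRNA in the pLKO vector against FOXA1 (shFOXA1), USP7 (shUSP7-1) or BUB3 (shBUB3), with the vector control LNCaP-plko. The siRNA experiment holds siEZH2 cells, in which the Polycomb methyltransferase EZH2 was targeted, and siCtrl cells. In the pGIPZ experiment, an shRNA against FOXA1 in the pGIPZ vector was used alone (shFoxA1), with re-expressed HA-tagged wild-type FOXA1 (shFoxA1 WT) or with the HA-tagged K295A form (shFoxA1 K295A), against the empty vector pGIPZ. All groups are LNCaP; the labels give RNA at 5 days after shRNA and 4 days after siRNA, and state no day for the third K295A library. Whether libraries of a group came from separate cultures is not stated, so adjusted p-values measure only the spread between these libraries, which may be technical.

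Sphingosine-1-phosphate is a lipid messenger made inside cells by phosphorylation of sphingosine, itself a breakdown product of ceramide. After export it acts on a small family of G protein-coupled receptors that steer migration, contraction and survival. The lipid is removed by dephosphorylation or by irreversible cleavage. S1PR1 couples to Gi and is best known in endothelium and lymphocytes, S1PR2 and S1PR3 couple to several G proteins, and S1PR5 is known from oligodendrocytes and natural killer cells. RGS4 speeds GTP hydrolysis by Gi and Gq alpha subunits and so shortens signals from receptors of this kind.

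Promoter windows are shown for S1PR3 and RGS4, the members with the largest fold changes in shFoxA1 against pGIPZ. They are RefSeq sequences of build GRCh38.p14, from 250 bases before to 50 bases after an annotated start, 5′ to 3′ on the plus strand, which is the strand of both genes. Forkhead-type words were searched on both strands, and capitals mark a match. TGTTTAC stood in 3.42% of the 35116 promoter windows of all genes. The word TGTTTGC stood in 3.89% of them, the word TATTTAC in 2.67% and the word TATTTGC in 2.97%. At least 1 of these words was found in 12.1% of windows.
S1PR3 start 1, chr9:88990613-88990912: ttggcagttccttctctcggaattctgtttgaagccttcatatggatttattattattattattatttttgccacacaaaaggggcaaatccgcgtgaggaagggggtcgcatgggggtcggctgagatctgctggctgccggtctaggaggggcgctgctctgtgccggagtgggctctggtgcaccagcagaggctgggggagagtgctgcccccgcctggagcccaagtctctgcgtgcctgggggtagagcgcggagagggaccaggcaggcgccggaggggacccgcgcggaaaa
S1PR3 start 2, chr9:88991218-88991517: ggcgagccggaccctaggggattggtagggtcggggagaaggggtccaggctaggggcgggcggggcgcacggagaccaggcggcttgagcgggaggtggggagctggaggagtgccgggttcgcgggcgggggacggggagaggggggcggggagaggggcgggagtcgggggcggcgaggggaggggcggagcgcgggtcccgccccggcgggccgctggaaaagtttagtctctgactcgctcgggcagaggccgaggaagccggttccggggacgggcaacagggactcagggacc
RGS4 start 1, chr1:163068621-163068920: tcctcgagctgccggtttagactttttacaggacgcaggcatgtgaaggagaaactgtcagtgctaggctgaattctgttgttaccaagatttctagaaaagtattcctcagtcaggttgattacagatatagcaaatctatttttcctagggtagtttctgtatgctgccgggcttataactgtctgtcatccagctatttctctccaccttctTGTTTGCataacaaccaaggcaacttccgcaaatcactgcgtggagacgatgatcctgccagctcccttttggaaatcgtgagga
The RGS4 window of start 1 holds TGTTTGC, with its first base 35 bases before the start. The windows of RGS4 starts 2, 3 and 4, not printed here, hold none of the words. The start 1 match was the single one among all windows of the 8 members, and neither S1PR3 window has one. A match is a description of these letters and not a bound site, and no binding data were used.

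Values are FPKM in the pLKO and siRNA experiments and RPKM in the pGIPZ experiment. Both scale reads by gene length and library total, so levels can be compared between genes of a table. Every value of a member was a whole multiple of a step for its gene and library within a tolerance of 0.05. The largest gap to a whole number was 0.0011. Read counts are taken from the largest such step, so a factor shared by all counts of a gene would not show. For S1PR1, with a single value above 0 in each table, the step gives no count. Relative depth was 0.9 to 1.3 in the pLKO libraries, 0.602 to 0.831 in the siRNA libraries and 0.847 to 1.3 in the pGIPZ experiment. The targeted genes were lower in each knockdown: FOXA1 averaged 59.0 FPKM in shFOXA1 against 116 in LNCaP-plko, USP7 6.21 in shUSP7-1 against 28.2, and BUB3 4.00 in shBUB3 against 36.3. EZH2 averaged 4.98 FPKM in siEZH2 against 12.6 in siCtrl. FOXA1 was 82.5 RPKM in shFoxA1 against 132 in pGIPZ, and 151 and 152 RPKM in K295A and WT cells, where native and introduced transcripts cannot be told apart. All 8 luminal markers of the list reached a value of 1 in every experiment, while 6 of 7 endothelial markers stayed under 1 in every library, VWF being the exception. The summed level of the luminal markers was below the control's in every knockdown group: its mean was 77.2% of LNCaP-plko in shFOXA1, 53.8% in shUSP7-1 and 70.5% in shBUB3, and 23.8% of siCtrl in siEZH2. It was 68.8% of pGIPZ in K295A, 71.7% in WT and 92.8% in shFoxA1. The part of this shift in the results below was not tested. The third shBUB3 library stood apart, with FPKM values summing to 367614 against 235344 to 306578 in the other pLKO libraries.

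A difference was called at adjusted p under 0.05 in limma's two-sided moderated test on log2(value + 1), with Benjamini-Hochberg adjustment over all genes tested. Fold changes are on that scale, which understates changes of low genes. A gene was tested where its value reached 1 in at least 3 libraries of an experiment. Of the 8 members, S1PR2, S1PR3, SPHK1, SPHK2 and SGPL1 passed in all 3 experiments and RGS4 passed in the pGIPZ experiment alone. S1PR1 and S1PR5 passed in none. Median-ratio scaling between libraries shifted the median of all genes by 0.14 in shFOXA1 against LNCaP-plko, by 0.13 in siEZH2 against siCtrl and by 0.12 in shFOXA1 against shBUB3, and no called member changed direction under it.

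In LNCaP-plko cells the lyase SGPL1 had the highest level of the set, 12.2 ± 0.534 FPKM, followed by SPHK2 at 7.52 ± 0.342, S1PR3 at 2.61 ± 0.0935, SPHK1 at 1.32 ± 0.132 and S1PR2 at 1.26 ± 0.152 (SD, n = 3 each). The libraries of SPHK1 and S1PR2 overlapped in this order. S1PR3 was thus the most abundant of the receptors, and the kinase SPHK2 exceeded SPHK1. S1PR1 was above 0 in a shFOXA1 library, at 0.0166 FPKM, and in a shFoxA1 library, at 0.0542 RPKM. It was listed at 0 in the other 28 libraries. A single value above 0 in each table sets no step, so the reads behind these values are not known. S1PR5 gave 11 reads over the 18 FPKM libraries and 10 over the 12 RPKM libraries, with no library above 0.0894. No difference in either receptor was detectable at this depth. S1PR4, the receptor of the family outside the set, gave 10, 6 and 4 reads in the 3 K295A libraries. Each of the other 9 libraries of the pGIPZ experiment gave 0 to 2. In the pLKO experiment it gave 0, 2 and 2 reads in shFOXA1 libraries and 3, 3 and 9 in shUSP7-1 libraries. The shBUB3 libraries gave 5, 3 and 10, and the LNCaP-plko libraries 7, 2 and 1. S1PR4 did not reach the level needed for the test.

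**Figure D1:**
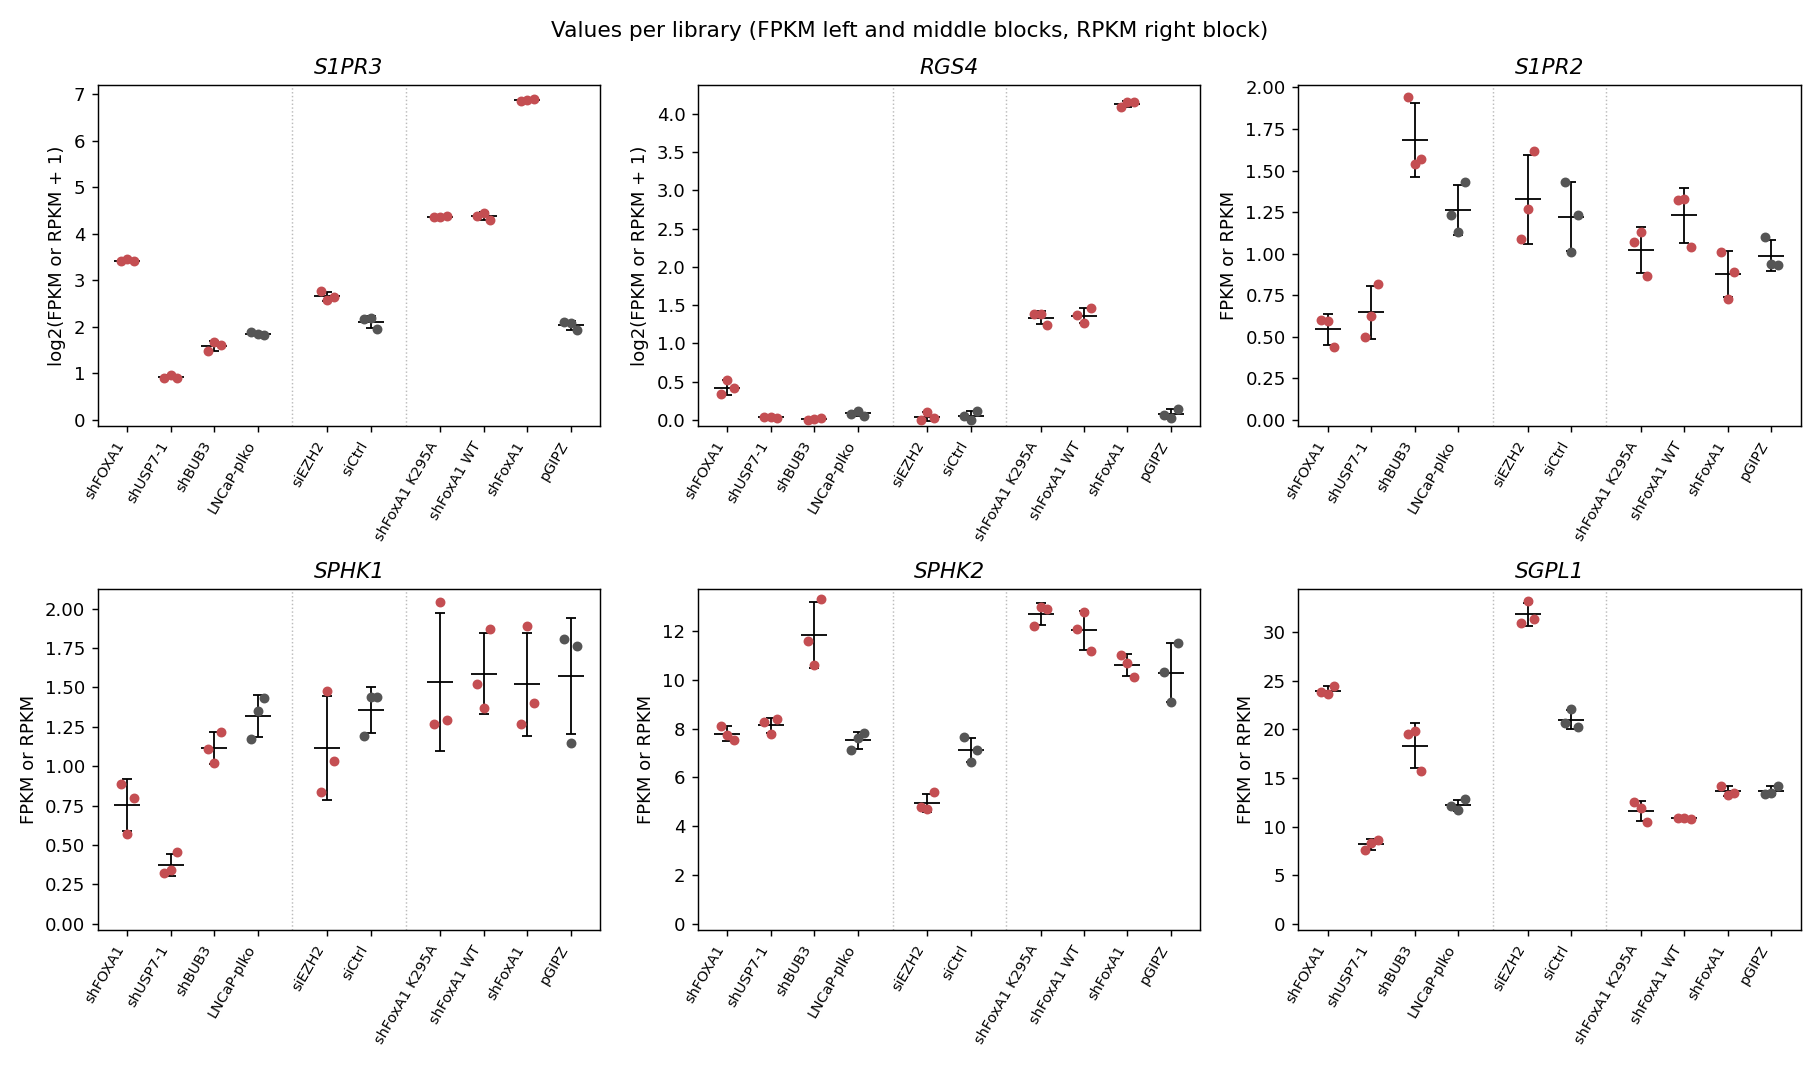
Each point is a library (FPKM for the 6 groups at the left and middle, RPKM for the 4 at the right), bars are the mean and SD of 3 libraries, and controls are grey; S1PR3 and RGS4 are on a log2(value + 1) axis, the others on a linear one. S1PR3 and RGS4 are, within RPKM values, highest in shFoxA1. Within FPKM values SPHK1 is lowest in shUSP7-1 (0.374 FPKM). SGPL1 is highest in siEZH2 (31.8 FPKM), whose control siCtrl (21.0 FPKM) is also above LNCaP-plko (12.2 FPKM).

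S1PR3 (chromosome 9, 88990863 to 89005010 in GENCODE 29, plus strand) had 114, 116 and 118 RPKM in shFoxA1 libraries, from 6069, 6973 and 5831 reads, against 3.28, 3.25 and 2.80 RPKM in pGIPZ libraries, from 161, 196 and 147 reads. The S1PR3 mean was 37.3 times higher in shFoxA1. On the log2(value + 1) scale the S1PR3 fold change of 4.83 ± 0.052 (SE) ranked 1 among 12563 genes tested. The rank holds for that scale only. By the ratio of means RGS4, described below, rose further than S1PR3 in the same comparison. Of the genes tested, 49.2% were called in this comparison. The ranking may have led to the choice of S1PR3 and carries no test.

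Both re-expressed forms of FOXA1 had S1PR3 well under the shFoxA1 level and well over the pGIPZ level. S1PR3 had 19.4, 19.5 and 19.8 RPKM in K295A cells and 19.9, 20.9 and 18.5 RPKM in WT cells. These groups overlapped with each other and with neither of the other 2. Relative to shFoxA1, S1PR3 fell by 2.51 ± 0.052 on the log2 scale in K295A cells and by 2.50 ± 0.052 in WT cells. Relative to pGIPZ it was higher by 2.32 ± 0.052 and 2.34 ± 0.052. On the linear scale, 14.6% of the difference between shFoxA1 and pGIPZ was left in K295A cells and 14.7% in WT cells. The comparison of K295A with WT gave a log2 difference of -0.01, with an interval of 2 SE from -0.11 to 0.09. FOXA1 RNA in both was over that in pGIPZ, at 151 and 152 against 132 RPKM.

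The FOXA1 knockdown in pLKO gave the same direction at a smaller size. S1PR3 had 9.65, 9.94 and 9.58 FPKM in shFOXA1 libraries, against 2.72, 2.58 and 2.54 FPKM in LNCaP-plko libraries. The log2 fold change was 1.57 ± 0.062, rank 133 of 12524 genes tested, in a comparison where 70.3% of genes were called. The vectors, tables and normalization of the experiments differ, so the sizes stand side by side and were not tested against each other.

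USP7 knockdown went the other way. S1PR3 had 0.880, 0.967 and 0.874 FPKM in shUSP7-1 libraries, under every LNCaP-plko library, and fell by 0.92 ± 0.062 on the log2 scale. In shBUB3 libraries it had 1.78, 2.19 and 2.07 FPKM and fell by 0.27 ± 0.062, or by 0.28 without the third shBUB3 library. Of all genes, 62.2% were called for shUSP7-1 and 65.2% for shBUB3. Set directly against each other, shUSP7-1 was below shBUB3 by 0.66 ± 0.062, and shFOXA1 was above shUSP7-1 by 2.49 ± 0.062 and above shBUB3 by 1.83 ± 0.062. These comparisons share the LNCaP-plko libraries or each other's libraries.

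S1PR3 was also higher after EZH2 siRNA. It had 5.78, 4.92 and 5.28 FPKM in siEZH2 libraries, against 3.50, 3.55 and 2.89 FPKM in siCtrl libraries, a log2 fold change of 0.55 ± 0.098, with 63.3% of genes called. FOXA1 RNA was also lower in siEZH2, at 91.2 FPKM against 133 in siCtrl, and its part in the S1PR3 difference was not tested. EZH2 RNA was in turn lower in the pLKO knockdowns, at 5.87 FPKM in shFOXA1, 6.27 in shUSP7-1 and 4.55 in shBUB3 against 12.6 in LNCaP-plko. It was 9.59 RPKM in shFoxA1 against 9.78 in pGIPZ. The part of EZH2 in the S1PR3 differences of these groups was not tested either. The summed level of 8 luminal markers was 478 to 591 FPKM in siEZH2, or 23.8% of the siCtrl mean. That of 7 fibroblast and smooth muscle markers was 10.3 to 13.6 FPKM in siEZH2 against 3.54 to 4.14 in siCtrl, and the part of these markers was not tested either. Across the 6 groups of the FPKM table the order of S1PR3 levels was shFOXA1, siEZH2, siCtrl, LNCaP-plko, shBUB3 and shUSP7-1, and no neighbours in it overlapped. The order joins the pLKO and siRNA experiments, whose controls already differ, at 2.61 FPKM in LNCaP-plko and 3.31 in siCtrl. Between groups of different experiments, treatment and experiment cannot be told apart. Fewer cells with the transcript and less transcript per cell cannot be told apart in these bulk libraries.

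Some markers of other cell types were highest in shFoxA1 within the pGIPZ experiment, as were S1PR3 and RGS4, the latter described next. The summed level of 8 immune markers was 9.26 to 11.0 RPKM in K295A, 8.50 to 9.73 in WT and 32.5 to 35.4 in shFoxA1, against 12.8 to 15.3 in pGIPZ. Most of it was CD68, a lysosomal gene, at 33.7 ± 1.4 RPKM in shFoxA1 against 13.2 ± 1.36 in pGIPZ. CD68 had 9.8 ± 0.878 RPKM in K295A and 9.05 ± 0.706 in WT, under the pGIPZ mean. LYZ, the other immune marker to reach 1, went the opposite way, at 0.131 ± 0.116 RPKM in shFoxA1 against 0.768 ± 0.267 in pGIPZ. PTPRC and MS4A1 were listed at 0 in all 12 libraries. Of the 3 basal markers, KRT14 was the only one to reach 1. It had 6.47 ± 1.09 RPKM in shFoxA1 against 2.58 ± 0.11 in pGIPZ, and 2.83 ± 0.401 FPKM in shFOXA1 against 0.975 ± 0.0829 in LNCaP-plko. The KRT14 means of 1.6 ± 0.193 RPKM in K295A and 2.21 ± 0.543 in WT were under the pGIPZ mean. S1PR3 and RGS4 stayed above pGIPZ in both of these groups. The summed level of 7 endothelial markers was 0.931 to 1.19 RPKM in shFoxA1 against 1.37 to 1.64 in pGIPZ. The part of these in the differences of the members was not tested.

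RGS4 (chromosome 1, 163068775 to 163076802, plus strand) was nearly absent from control cells and ranked 5 by log2(value + 1) fold change in shFoxA1. It had 16.0, 16.8 and 16.8 RPKM in shFoxA1 libraries, from 771, 918 and 754 reads, against 0.0449, 0.0183 and 0.105 RPKM in pGIPZ libraries, from 2, 1 and 5 reads. The log2(value + 1) fold change was 4.05 ± 0.071, rank 5 of 12563, a value set in part by the pseudocount because pGIPZ is so low. RGS4 had 1.62, 1.61 and 1.37 RPKM in K295A cells and 1.58, 1.41 and 1.75 RPKM in WT cells. That was lower than shFoxA1 by a log2 change of -2.79 ± 0.071 in K295A and -2.77 ± 0.071 in WT. RGS4 stayed above pGIPZ by 1.26 ± 0.071 in K295A and 1.29 ± 0.071 in WT on the log2 scale. On the linear scale, 8.96% of the shFoxA1 rise was left in K295A and 9.23% in WT. K295A and WT differed by -0.03, with an interval of 2 SE from -0.17 to 0.12.

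In the pLKO experiment RGS4 was too low for the test. Its reads numbered 25, 40 and 26 in shFOXA1 libraries, against 5, 8 and 3 in LNCaP-plko libraries, which is 0.344 ± 0.0903 against 0.0615 ± 0.0225 FPKM (SD, n = 3 each). All shFOXA1 libraries were above all others of this experiment. With the filter on low values left out, the fold change was 0.34 ± 0.039. RGS4 had 2 reads in each shUSP7-1 library and 0, 1 and 2 in shBUB3 libraries. It had 0, 5 and 1 reads in siEZH2 libraries against 2, 0 and 6 in siCtrl libraries, where no difference was detectable. S1PR3 and RGS4 thus had their highest levels in the same group of each shRNA experiment.

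**Figure D2:**
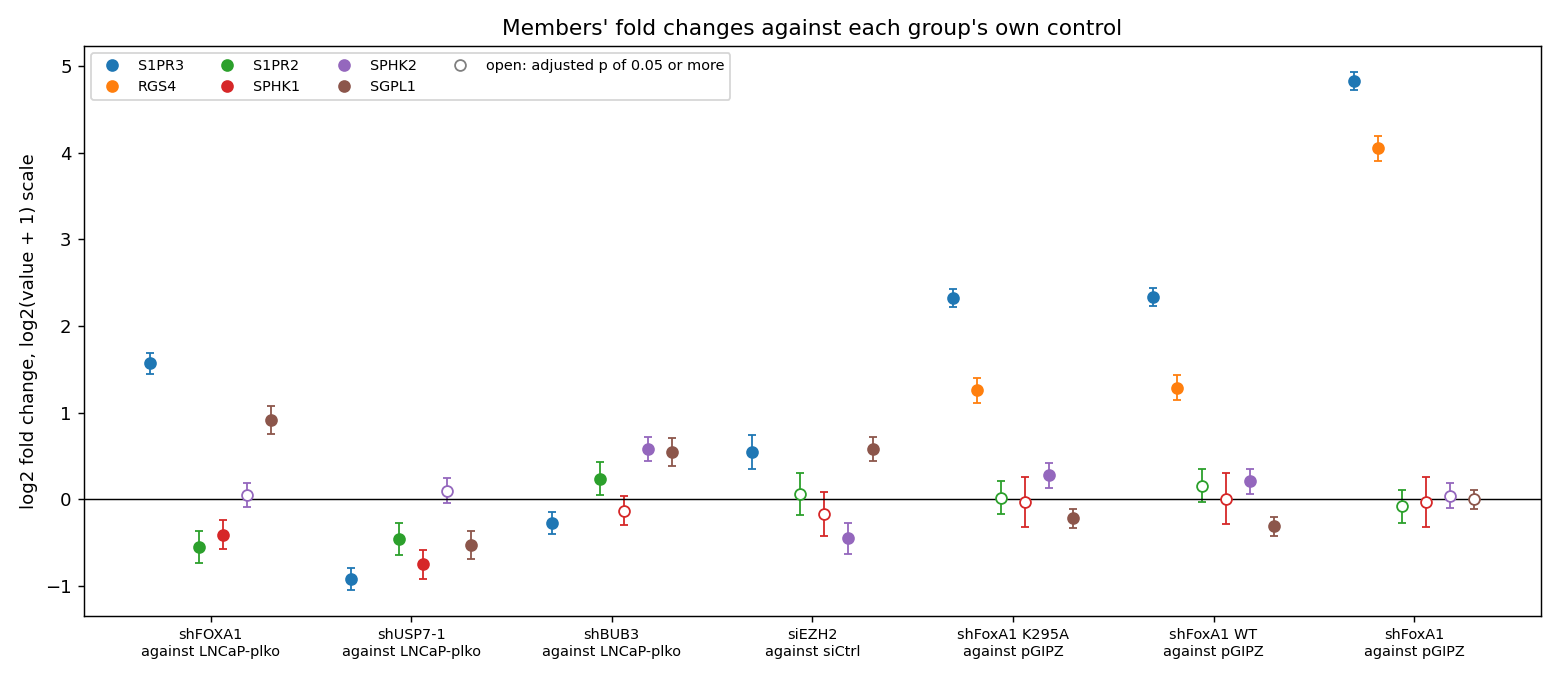
Log2 fold changes on the log2(value + 1) scale against each group's own control; bars are 2 SE, filled points are called and open points are not. S1PR3 spans -0.92 in shUSP7-1 to 4.83 in shFoxA1, while SPHK1 and S1PR2 fall in shFOXA1 and shUSP7-1 but are open points in the 3 comparisons with pGIPZ.

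Genes beside S1PR3 were looked at after the values of S1PR3 had been seen. The tables hold a separate row for C9orf47, which RefSeq lists as a synonym of S1PR3, and it had 2.97 ± 0.0338 RPKM in shFoxA1 against 0.151 ± 0.0281 in pGIPZ. SHC3, an adaptor gene on the opposite strand that ends 0.761 kb past S1PR3, had 2.52 ± 0.171 RPKM in shFoxA1 against 0.450 ± 0.025 in pGIPZ, and 0.487 ± 0.0979 FPKM in shFOXA1 against 0.495 ± 0.0219 in LNCaP-plko. The labels state no strand for the libraries, so reads of S1PR3 past its end and reads of SHC3 cannot be told apart. Within 2000 kb of the S1PR3 start, 10 other genes were tested in shFoxA1 against pGIPZ. Of these, 6 were higher and 0 lower, with a median log2 fold change of 1.03 against 0 over all genes. Called genes were 49.2% of all genes there. SHC3, 1 of the 6, entered the fit only through the shFoxA1 libraries, so its call is not counted as support. Another of the 6 was the microRNA gene MIR3153, at 5.44 ± 3.73 RPKM in shFoxA1 against 0.932 ± 0.892 in pGIPZ. It starts 321 kb from the S1PR3 start, close to the CKS2 start at 320 kb. Whether reads of MIR3153 and CKS2 are separate was not tested, so these genes may not be independent in the counts. In shFOXA1 against LNCaP-plko, 3 of 9 were higher and 4 lower, with a median of -0.08 against -0.15 over all genes. Both MIR3153 and CKS2 were among the 4 lower, and 70.3% of all genes were called. DAPK1, a death-associated kinase gene, had 10.6 RPKM in shFoxA1 against 0.437 in pGIPZ and 7.42 FPKM in shFOXA1 against 0.531 in LNCaP-plko. It was 1 of the 3 higher in shFOXA1 and entered that fit only through the shFOXA1 libraries. CKS2, which encodes a subunit of cyclin-dependent kinases, went opposite ways, by 1.64 ± 0.067 in shFoxA1 and -1.84 ± 0.084 in shFOXA1.

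**Figure D3:**
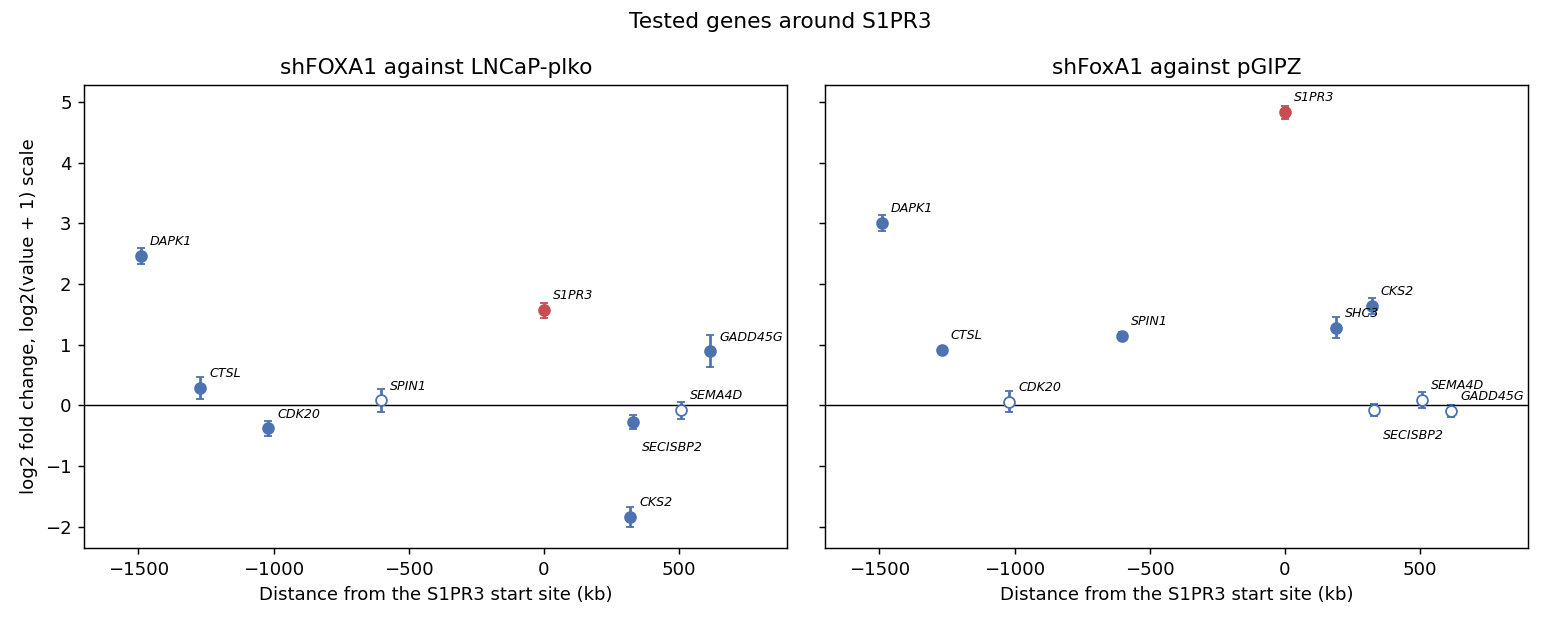
Log2 fold change of the tested genes of GENCODE 29 around S1PR3 by distance of their start from the S1PR3 start, for shFOXA1 (left) and shFoxA1 (right), with bars of 2 SE, open points where not called, and microRNA genes left out. In shFoxA1 the genes SPIN1 (1.14), SHC3 (1.28) and CKS2 (1.64) lie above 0 beside S1PR3 (4.83); in shFOXA1, SPIN1 lies at 0.08 and CKS2 at -1.84.

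Around RGS4, 4 of 22 tested genes were higher and 4 lower in shFoxA1 against pGIPZ, with a median of -0.05 against 0 over all genes. In shFOXA1 against LNCaP-plko, 3 of 23 were higher and 15 lower, with a median of -0.33 against -0.15. Over all genes, 49.2% were called in shFoxA1 and 70.3% in shFOXA1. Of the higher genes around RGS4, 1 in shFoxA1 and 2 in shFOXA1 entered the fit only through those knockdown libraries. The nearest gene after RGS4 is RGS5, another regulator of G protein signalling, 34.3 kb past its end on the opposite strand. RGS5 had 1.21 ± 0.0557 RPKM in shFoxA1 against 0.337 ± 0.0432 in pGIPZ, and 1.58 ± 0.128 FPKM in shFOXA1 against 0.499 ± 0.0534 in LNCaP-plko. It is among those genes in both experiments, with 0 libraries outside the knockdown group at 1 or more, so no test is given.

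S1PR2 (chromosome 19, 10221433 to 10231331, minus strand) was lower after 2 of the pLKO knockdowns. It had 0.601, 0.598 and 0.438 FPKM in shFOXA1, 0.499, 0.627 and 0.818 in shUSP7-1 and 1.94, 1.54 and 1.57 in shBUB3, against 1.23, 1.13 and 1.43 in LNCaP-plko. The shFOXA1 and shUSP7-1 libraries were all under the control libraries, and the shBUB3 libraries all over them. The log2 fold changes were -0.55 ± 0.093, -0.46 ± 0.093 and 0.24 ± 0.093. The shBUB3 call rested on an adjusted p of 0.0374, which ranged from 0.0294 to 0.146 over 12 alternatives and was lost in 7 of them. Among these were the fits without the first shBUB3 library (adjusted p = 0.146) and without the first (0.0898) or second (0.128) control library. In the other experiments S1PR2 averaged 1.32 FPKM in siEZH2 against 1.22 in siCtrl, and 1.02 RPKM in K295A, 1.23 in WT and 0.879 in shFoxA1 against 0.988 in pGIPZ; none of these was called against its own control. WT was called above shFoxA1, by 0.24 ± 0.097, at an adjusted p of 0.0492 that ranged from 0.0189 to 0.176 and was lost in 7 of 12 alternatives; without the first (0.133) or second (0.134) WT library, and without the second (0.176) or the third (0.0925) shFoxA1 library, it missed the threshold. A stretch of 9854 bases of S1PR2 lies within the annotated DNMT1 gene on the same strand, so its reads cannot be fully told apart from those of DNMT1. DNMT1, a maintenance DNA methyltransferase, averaged 8.32 FPKM in shFOXA1, 5.47 in shUSP7-1 and 10.3 in shBUB3 against 25.7 in LNCaP-plko, so it was lower in shBUB3 too, where S1PR2 was higher.

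SPHK1 (chromosome 17, 76376584 to 76387860, plus strand), the kinase usually found in the cytoplasm and at the plasma membrane, had its lowest level after USP7 knockdown. It had 0.324, 0.344 and 0.454 FPKM in shUSP7-1, from 17, 17 and 26 reads, against 1.17, 1.35 and 1.43 FPKM in LNCaP-plko, from 61, 79 and 67 reads. The log2 fold change was -0.75 ± 0.084. In shFOXA1 it had 0.889, 0.567 and 0.800 FPKM and a fold change of -0.41 ± 0.084, with no overlap with the control. Values in shBUB3 (1.11, 1.02 and 1.22 FPKM) and siEZH2 (0.835, 1.48 and 1.03 FPKM) overlapped with LNCaP-plko and siCtrl. In the pGIPZ experiment all 4 groups averaged 1.52 to 1.58 RPKM and no comparison was called. Set directly, shUSP7-1 was below shBUB3 by 0.62 ± 0.084, and shFOXA1 was above shUSP7-1 by 0.35 ± 0.084. SPHK1 shares 7938 bases with PRPSAP1 on the opposite strand, and without strand these reads cannot be told apart. PRPSAP1 averaged 6.94 FPKM in shFOXA1 and 13.8 in shUSP7-1 against 15.6 in LNCaP-plko.

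SPHK2 (chromosome 19, 48619291 to 48630717, plus strand), a kinase found also in nucleus and mitochondria, rose after BUB3 knockdown. It had 11.6, 10.6 and 13.3 FPKM in shBUB3, against 7.14, 7.62 and 7.80 FPKM in LNCaP-plko, a log2 fold change of 0.58 ± 0.071, or 0.51 without the third shBUB3 library. Its values in shFOXA1 (8.12, 7.73 and 7.53 FPKM) and shUSP7-1 (8.25, 7.79 and 8.38 FPKM) were near the control and not called. It was lower after EZH2 siRNA, with 4.78, 4.71 and 5.39 FPKM in siEZH2 against 7.64, 6.64 and 7.11 FPKM in siCtrl, a fold change of -0.45 ± 0.088. In the pGIPZ experiment it had a median of 12.9 RPKM in K295A, 12.1 in WT and 10.7 in shFoxA1, against 10.3 in pGIPZ, where libraries ranged from 9.08 to 11.5. The lowest K295A library, at 12.2 RPKM, was above all pGIPZ libraries, while WT and shFoxA1 overlapped with pGIPZ. The differences from pGIPZ of 0.28 ± 0.072 in K295A and 0.21 ± 0.072 in WT were called. After median-ratio scaling between libraries they were 0.17 and 0.11 and no longer called. The WT call, at an adjusted p of 0.0344 that ranged from 0.00642 to 0.253, was lost in 8 of 12 alternatives. It was lost without the first (adjusted p = 0.0799) or second (0.12) WT library and without the first (0.0652) or second (0.137) pGIPZ library. SPHK2 was also called above shFoxA1 in K295A, by 0.24 ± 0.072, at an adjusted p of 0.0139 that ranged from 0.00332 to 0.13 and was lost after scaling and without the third shFoxA1 library (0.0519). SPHK2 overlaps RPL18 by 246 bases and DBP by 688 bases on the opposite strand. RPL18, a ribosomal protein gene of far higher level, averaged 555 FPKM in shBUB3 against 450.0 in LNCaP-plko and was not called.

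SGPL1 (chromosome 10, 70815961 to 70881173, plus strand) encodes the lyase that cleaves the lipid irreversibly. It had 23.8, 23.6 and 24.5 FPKM in shFOXA1, 7.57, 8.31 and 8.59 in shUSP7-1 and 19.5, 19.8 and 15.7 in shBUB3, against 12.1, 11.7 and 12.8 in LNCaP-plko. No knockdown library overlapped with the control. The log2 fold changes were 0.92 ± 0.08 in shFOXA1, -0.53 ± 0.08 in shUSP7-1 and 0.55 ± 0.08 in shBUB3, the last being 0.65 without the third shBUB3 library. Set directly, shUSP7-1 was below shBUB3 by 1.08 ± 0.08 and shFOXA1 was above shBUB3 by 0.37 ± 0.08. SGPL1 also rose in siEZH2, to 30.9, 33.2 and 31.4 FPKM against 20.7, 22.1 and 20.2 FPKM in siCtrl, by 0.58 ± 0.069.

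The pGIPZ vector gave another picture for SGPL1. It averaged 13.6 ± 0.523 RPKM in shFoxA1 against 13.6 ± 0.472 in pGIPZ (SD, n = 3 each), where S1PR3 and RGS4 had their largest differences. The log2 difference was -0.00 ± 0.055. It was lower in K295A (12.5, 11.9 and 10.5 RPKM) and WT (10.9, 10.9 and 10.8 RPKM) than in pGIPZ (13.3, 13.5 and 14.2 RPKM), by -0.22 ± 0.055 and -0.31 ± 0.055.

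Counted over the set, 4 of 5 tested members were called in shFOXA1 (2 higher, 2 lower; 70.3% of all genes called), 4 of 5 in shUSP7-1 (all lower; 62.2%), 4 of 5 in shBUB3 (3 higher, 1 lower; 65.2%) and 3 of 5 in siEZH2 (2 higher, 1 lower; 63.3%). In the pGIPZ experiment 4 of 6 were called in K295A and in WT against pGIPZ (3 higher, 1 lower in each), where 50.5% and 45.5% of all genes were called, and 2 of 6 in shFoxA1 (both higher, with 49.2% of all genes called). Against shFoxA1, 4 of 6 were called in each re-expression group (1 higher, 3 lower), with 56.9% of all genes called for K295A and 55.5% for WT. Directly compared, 5 of 5 members were lower in shUSP7-1 than in shBUB3 (65.2% of genes called). In shFOXA1, 3 of 5 were called against shUSP7-1 (70.9%) and 5 of 5 against shBUB3 (73.4%). Nothing is read from these counts, because the contrasts count as used in the choice of members. The median log2 fold change of the tested members was 0.05 in shFOXA1 against -0.15 over all genes tested, -0.53 in shUSP7-1 against -0.02, 0.24 in shBUB3 against 0.01 and 0.06 in siEZH2 against -0.16. In the pGIPZ experiment it was 0.15 in K295A against 0.11, 0.18 in WT against 0.10 and 0.02 in shFoxA1 against 0. For K295A against WT, 0 of 6 members and 0.183% of genes (23 of 12563) were called.

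Genes whose values ran most like a member's over the 18 FPKM libraries were found by Pearson correlation of log2(value + 1). For S1PR3 these were PPFIA2 (r = 0.979), TMEM184C (0.975) and DSE (0.962), with r of 0.852, 0.832 and 0.452 over the 12 RPKM libraries. For SGPL1 they were BAZ1A (0.977), GYLTL1B (0.967) and FZD1 (0.966), with -0.395, -0.431 and 0.484 in the RPKM table. For SPHK2 they were GNG7 (0.971), a G protein gamma subunit gene, B3GAT3 (0.970) and SLC35C2 (0.968), with 0.792, 0.196 and -0.424 in the RPKM table. For S1PR2 they were BTN2A2 (0.934), PDLIM1 (0.917) and C1orf233 (0.915), with 0.061, -0.242 and 0.482. For SPHK1 they were UBXN8 (0.934), PLS3 (0.913) and PCID2 (0.908), with -0.199, 0.27 and -0.009. The libraries form 6 and 4 groups, and libraries of a group share their treatment, so the points are not independent.

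The wider pathway was described with 8 lists of 99 genes, all in the tables and written with earlier results known. Among the 7 lysophospholipid receptors outside the set, LPAR2, LPAR3 and LPAR6 passed the filter. LPAR3, a lysophosphatidic acid receptor, was lower in both FOXA1 knockdowns, in shUSP7-1 and in siEZH2. It had 0.561 ± 0.204 FPKM in shFOXA1 against 14.1 ± 1.14 in LNCaP-plko (log2 fold change -3.28, adjusted p = 7.2e-09), and 5.75 ± 0.958 in shUSP7-1 (-1.17, adjusted p = 6.1e-05). It had 6.43 ± 0.249 RPKM in shFoxA1 against 13.3 ± 0.542 in pGIPZ (-0.94, adjusted p = 4.7e-08), and 4.27 ± 0.24 FPKM in siEZH2 against 22.1 ± 0.936 in siCtrl (-2.13, adjusted p = 4.3e-08). In K295A and WT cells LPAR3 was 19.6 ± 1.42 and 21.9 ± 0.83 RPKM, over pGIPZ. LPAR6 rose in shFoxA1, to 7.25 against 3.76 RPKM in pGIPZ (0.79, adjusted p = 2e-05), and in siEZH2, to 9.54 against 3.17 FPKM in siCtrl (1.33, adjusted p = 6.5e-06). In the pLKO experiment it was lower than in LNCaP-plko in every knockdown, with 2.35, 1.91 and 2.24 FPKM in shFOXA1 libraries against 3.13, 3.62 and 3.67 in LNCaP-plko libraries. Its mean was 2.37 FPKM in shUSP7-1 and 1.72 in shBUB3 against 3.47 in LNCaP-plko. The FOXA1 knockdowns thus gave opposite directions for LPAR6 in the pLKO and pGIPZ vectors.

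Of 17 ceramide synthesis genes, 13 were tested in shFOXA1, with 4 higher and 5 lower, and 15 in shFoxA1, with 4 higher and 9 lower. The share of all genes called was 70.3% in shFOXA1 and 49.2% in shFoxA1. The list's median log2 fold change was -0.06 against -0.15 over all genes in the first and -0.20 against 0 in the second. After median-ratio scaling the split in shFOXA1 turned round, to 6 higher and 4 lower. The dihydroceramide desaturase DEGS1, the step that completes ceramide, had 59.8 ± 1.39 FPKM in shFOXA1 against 276 ± 5.9 in LNCaP-plko (-2.19, adjusted p = 3.2e-11), and 59.3 ± 5.57 in siEZH2 against 277 ± 11.1 in siCtrl (-2.21, adjusted p = 4e-08). Its relative DEGS2, which also makes phytoceramide, had 7.44 ± 0.291 FPKM in shFOXA1 against 0.619 ± 0.151 in LNCaP-plko. With 2 libraries outside shFOXA1 at 1 or more, DEGS2 entered that fit through shFOXA1, so its call, 1 of the 4 higher, is not counted as support. DEGS2 had 7.46 ± 0.719 RPKM in shFoxA1 against 1.30 ± 0.244 in pGIPZ (1.88, adjusted p = 4.9e-06), while DEGS1 fell there by 0.91 on the log2 scale. The 2 desaturase genes thus moved in opposite directions in shFoxA1. DEGS1 was among the 23 genes called between K295A and WT, at 190.0 against 216 RPKM (-0.18, adjusted p = 0.0135), although no member differed by a call there.

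Of 13 genes that release sphingosine or ceramide, 10 were tested in shUSP7-1, with 7 higher and 2 lower and a median of 0.51 against -0.02 over all genes. Called genes made up 62.2% of all genes there. ACER2, an alkaline ceramidase, rose to 13.3 ± 0.224 FPKM in shUSP7-1 against 3.82 ± 0.202 in LNCaP-plko (1.57, adjusted p = 2.9e-05). In shBUB3 the acid ceramidase ASAH1 had 138 ± 3.29 FPKM against 58.8 ± 2.01 in LNCaP-plko (1.22, adjusted p = 1.4e-09). In siEZH2, 1 gene of this list was higher and 6 were lower of 9 tested, with a median of -0.30 against -0.16. After scaling, 2 were higher and 3 lower. Before scaling, 63.3% of all genes were called in siEZH2.

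Among 11 genes of dephosphorylation, export and oxidation of the lipid, 7 were tested in shBUB3, with 2 higher and 5 lower. The list's median there was -0.40 against 0.01 over all genes, and 65.2% of all genes were called. SGPP1, a phosphatase specific for the lipid, had 40.4 ± 4.24 FPKM in shBUB3 against 14.8 ± 0.371 in LNCaP-plko (1.39, adjusted p = 9.4e-09). The broader lipid phosphatase gene PPAP2A had 14.4 ± 1.5 FPKM in shBUB3 against 86.9 ± 1.31 in LNCaP-plko (-2.52, adjusted p = 1.1e-10). ALDH3A2, which oxidizes the aldehyde that SGPL1 releases, rose to 34.6 ± 0.29 RPKM in shFoxA1 against 16.4 ± 0.411 in pGIPZ (1.03, adjusted p = 2.4e-10), where SGPL1 itself was not called. In the list of ceramide conversion, 7 of 9 tested genes were higher and 0 lower in shBUB3, with a median of 0.47 against 0.01. CERK, ceramide kinase, had 2.00 FPKM in shFOXA1 against 0.431 in LNCaP-plko and 3.50 in siEZH2 against 0.612 in siCtrl. It entered both fits only through the knockdown libraries, so no test is given. It was also higher in K295A and WT, at 2.42 and 2.66 RPKM against 0.430 in pGIPZ.

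**Figure D4:**
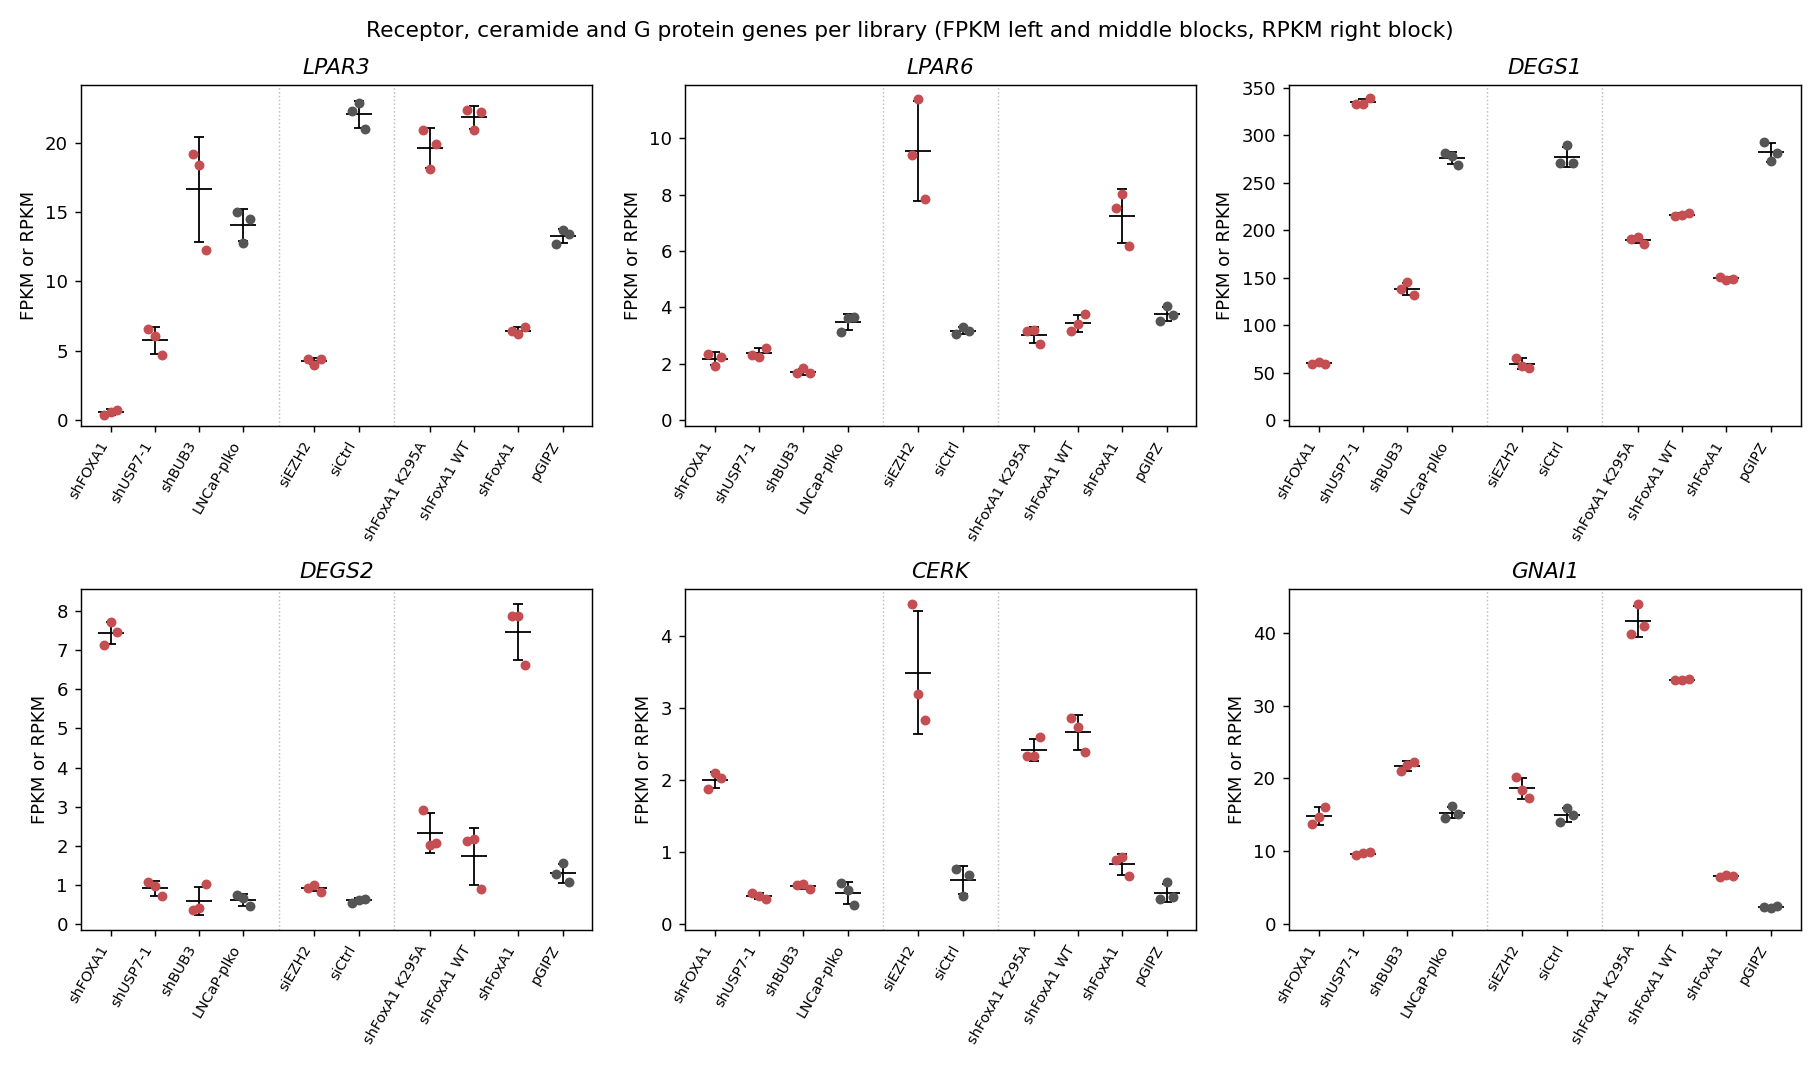
Library values of lysophosphatidic acid receptors (LPAR3, LPAR6), ceramide enzymes (DEGS1, DEGS2, CERK) and the Gi subunit GNAI1 on linear axes, FPKM for the 6 groups at the left and middle and RPKM for the 4 at the right; bars are the mean and SD of 3 libraries, and controls are grey. DEGS2 is 7.44 in shFOXA1 and 7.46 in shFoxA1 while DEGS1 is under its control there, and GNAI1 is highest in K295A (41.6) and WT (33.6).

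Of 13 G protein alpha subunit, receptor kinase and arrestin genes, 12 were tested; 10 were higher and 0 lower in both K295A and WT against pGIPZ, with medians of 0.21 and 0.23 against 0.11 and 0.10 over all genes. After scaling, 3 were higher in K295A and 5 in WT, with 0 lower in either. Before scaling, 50.5% of all genes were called in K295A and 45.5% in WT. GNAI1, an inhibitory alpha subunit of the kind these receptors couple to, had 41.6 ± 2.08 RPKM in K295A, 33.6 ± 0.105 in WT and 6.55 ± 0.104 in shFoxA1 against 2.29 ± 0.178 in pGIPZ. It rose over pGIPZ in each, by 3.70, 3.40 and 1.20 on the log2 scale, and was called between K295A and WT (0.30, adjusted p = 0.0275). Thus GNAI1 went further from pGIPZ in the re-expression groups, where S1PR3 and RGS4 went back towards it. The FOXA1 knockdown in pLKO gave no such rise. GNAI1 had 13.7, 14.7 and 16.1 FPKM in shFOXA1 libraries, overlapping with 14.6, 16.2 and 15.1 in LNCaP-plko libraries. In siEZH2 the receptor kinase GRK6 fell to 6.21 ± 0.512 FPKM against 22.2 ± 1.58 in siCtrl (-1.69, adjusted p = 2e-07).

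Of 18 other RGS genes, 9 were tested in each experiment. Over all genes, 49.2% were called in shFoxA1 against pGIPZ and 70.3% in shFOXA1 against LNCaP-plko. In shFoxA1, 2 were higher and 3 lower, and in shFOXA1, 3 were higher and 3 lower, so the called genes of the family split in direction; after scaling, 1 was higher and 3 lower in shFoxA1, and 5 higher and 3 lower in shFOXA1. Of the higher genes, 1 of the 2 in shFoxA1 and 1 of the 3 in shFOXA1 was RGS5, described above. RGS16 had 3.55 ± 0.121 FPKM in shUSP7-1 against 0.456 ± 0.117 in LNCaP-plko, and RGS2 had 2.43 ± 0.609 FPKM in siEZH2 against 0.378 ± 0.138 in siCtrl. Each entered its fit only through that knockdown group, so no test is given.

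Of 10 YAP and serum response targets, 8 were tested. In shFoxA1 7 were higher and 1 lower than in pGIPZ, with a median of 0.47 against 0 over all genes, of which 49.2% were called. Against shFoxA1, 7 were lower and 1 higher in both K295A and WT, with medians of -0.62 and -0.56 against 0.10 and 0.08. The called share of all genes against shFoxA1 was 56.9% for K295A and 55.5% for WT. CYR61 had 6.06 ± 0.354 RPKM in K295A, 6.10 ± 0.662 in WT and 16.9 ± 1.06 in shFoxA1 against 9.16 ± 0.922 in pGIPZ. ACTA2 had 1.99 ± 0.166 RPKM in K295A, 1.85 ± 0.32 in WT and 7.32 ± 0.546 in shFoxA1 against 2.02 ± 0.0736 in pGIPZ. In shBUB3 6 of 8 were higher and 2 lower, with a median of 0.43 against 0.01 and 65.2% of all genes called. ACTA2 had 11.9 ± 1.51 FPKM in shBUB3 against 2.81 ± 0.161 in LNCaP-plko. S1PR3 was lower in shBUB3, and its relation to this list was not tested. In shFOXA1 4 of the list were higher and 3 lower, or 1 lower after scaling. The median there was 0.30 against -0.15, with 70.3% of all genes called.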

How the data were processed

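RNA of LNCaP cells was made into libraries with NEBNext Ultra RNA, per the labels' protocols. Reads were mapped by STAR on hg38, according to the submitters' processing notes; its version is, like the counter, the annotation and the strand, not given in the sources used here. The authors deposited FPKM values for 18 libraries and RPKM values for 12. Both tables list 26475 genes, 32 of them without values, and 0 pairs of columns were identical. Since both units divide by gene length and library total, a change in a few abundant genes shifts all others. Read totals are not in the tables. Relative depth and member reads came from the steps between low values, so no interval that needs totals was computed.

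The members and all gene lists were chosen with earlier results of these data known. The log2(value + 1) values of each experiment entered 1 limma fit (3.58.1, in R 4.3.3), with group means as terms and a trend of variance on level. A gene entered where 3 libraries of the experiment reached 1. The 13 comparisons used moderated two-sided tests, Benjamini-Hochberg adjustment over the genes of the fit, and a threshold of 0.05. For a single value, permuting 3 against 3 libraries gives an exact p of 0.1 at the lowest. The fits were tested on simulated data.

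The genes named are the members, the targets, the 3 genes most like each member that passed the filter in the FPKM libraries, and per list and comparison with a control up to 2 called genes of largest fold change with a group mean of at least 1 and no overlap of libraries. Neighbours, overlapping genes, S1PR4 and marker genes were picked once their values were known, and values of list genes in further groups are given beside those that the rule named. Deviations of same-numbered libraries correlated at -0.18 to 0.13, so the numbers do not pair them. Promoters are RefSeq (GRCh38.p14) and positions GENCODE 29. Alternatives tried were a pseudocount of 0.1, no filter, median-ratio scaling, fits of the 2 groups alone, no trend, a replicate block and each library left out. Other steps ran in Python 3.11.15, where NumPy 2.4.6 and pandas 2.3.3 handled tables, SciPy 1.17.1 statistics and matplotlib 3.10.9 figures.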

Additional observations from a re-analysis of the deposited data

How the results depend on the processing

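The 71 tested differences of members were computed again under 7 kinds of alternative, giving 844 values. None of the 46 called differences changed sign in any of them; 6 of the 46 lost the call in 26 values. These were S1PR2 in shBUB3 and in WT against shFoxA1, SPHK2 in WT against pGIPZ and in K295A against pGIPZ and shFoxA1, and SPHK1 in shFOXA1 against shBUB3, the last without the second shFOXA1 library only (adjusted p = 0.054, the highest of a range from 0.007). Also, 1 uncalled result, SPHK2 in WT against shFoxA1, gained it in 2. All 34 values with a changed sign belonged to 13 uncalled results and were at most 0.13 in size. Under median-ratio scaling SPHK1 was -0.05 in WT against pGIPZ, -0.02 in WT against shFoxA1 and -0.06 in K295A against shFoxA1, S1PR2 was -0.04 in K295A against pGIPZ, and SPHK2 was 0.04 in shFOXA1 against shUSP7-1. With a pseudocount of 0.1, SPHK1 in K295A against shFoxA1 was -0.00. With a library left out, S1PR2 in siEZH2 against siCtrl ranged from -0.03 to 0.13, SPHK1 in shFoxA1 against pGIPZ from -0.15 to 0.04, SGPL1 in shFoxA1 against pGIPZ from -0.03 to 0.02, SPHK2 in shFoxA1 against pGIPZ from -0.04 to 0.11, SPHK1 in WT against pGIPZ from -0.11 to 0.08, SPHK1 in K295A against pGIPZ from -0.16 to 0.05, S1PR2 in K295A against pGIPZ from -0.01 to 0.08, SPHK1 in WT against shFoxA1 from -0.04 to 0.14, SPHK1 in K295A against shFoxA1 from -0.13 to 0.10, SPHK1 in K295A against WT from -0.17 to 0.04, RGS4 in K295A against WT from -0.07 to 0.02, S1PR3 in K295A against WT from -0.06 to 0.03. The cause of these sign changes near 0 was not tested.

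The number of genes called between K295A and WT, 23, was 11 without the filter, 6 in a fit of the 2 groups, 8 without the intensity trend, 14 with the replicate block, 29 after scaling and 9 to 18 when a library was left out; 0 members were called in any. The replicate block moved no other count of called genes by over 1.5 times. It ended the calls of S1PR2 in shBUB3 (adjusted p = 0.0574) and SPHK2 in WT against pGIPZ (adjusted p = 0.0583); the numbers do not pair the libraries. Median-ratio scaling brought the higher genes among those called to 48.4% instead of 35.9% in shFOXA1 and to 45.8% instead of 32.1% in siEZH2. In K295A and WT against pGIPZ that share was 49.4% instead of 74.7% and 48.5% instead of 74.0%; against shFoxA1 it was 49.3% instead of 67.9% and 49.8% instead of 65.9%, and for K295A against WT 34.5% instead of 47.8%. S1PR1, S1PR5 and, in the FPKM table, RGS4 rest on too few reads for a test.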
